A study of Mus musculus with 2 samples.

Results

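The CXC chemokine and receptor genes Cxcl1, Cxcl2, Cxcl3, Cxcl5, Cxcl16, Cxcr2 and Cxcr4 were followed across the cell classes of colorectal polyps and between WT and Clec7a-/- mice. They are the 7 genes named for the neutrophil-attracting CXC chemokine axis, taken by a rule that uses gene names and no measured value, out of 32285 genes in the count tables, and all 7 were found. The cells were CD11b+ and CD11c+ cells sorted from colorectal polyps of C57BL6/J mice given azoxymethane (AOM), a colon carcinogen, and then 3 cycles of 1% dextran sulfate sodium (DSS), which injures the colon lining. Mice were 26 weeks old by the labels, and cells were taken 16 weeks after AOM. The WT library pooled cells of 5 mice. The other library pooled cells of 4 Clec7a-/- mice, which lack Dectin-1, a receptor for fungal beta-glucans. Clec7a itself was not analysed here, so it could not check the library labels.

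CXCL1, CXCL2, CXCL3 and CXCL5 are secreted chemokines that bind CXCR2, the receptor by which neutrophils are drawn from blood into inflamed tissue. Their genes are switched on within minutes to hours by IL-1, TNF and microbial products through NF-kappaB, and their mRNAs are short-lived. CXCR4 binds CXCL12, a stromal chemokine, and holds neutrophils and their precursors in the bone marrow, and it is gained by neutrophils as they age. CXCL16 is unlike the others in being made as a membrane protein that binds oxidized lipids and CXCR6 of T cells, and ADAM10 and ADAM17 release it as a soluble chemokine.

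Cxcl5, Cxcl3, Cxcl1 and Cxcl2 lie on the plus strand of chromosome 5 within 146.579 kb (GRCm38, from Cxcl5 at chr5:90759360-90761624 to Cxcl2 at chr5:90903871-90905938, with Cxcl3 at chr5:90786103-90789600 and Cxcl1 at chr5:90891241-90893115, GENCODE M21). Cxcl16 lies on the minus strand of chromosome 11 (chr11:70453983-70459984). Cxcr2 lies on the plus strand and Cxcr4 on the minus strand of chromosome 1 (chr1:74153989-74161246 and chr1:128588199-128592293). RefSeq promoter windows (GRCm38.p6, 250 bases before the RefSeq start to 50 after it) were given for 5 of the 7 genes, and not for Cxcl5 and Cxcl16. The longest run of bases shared by the stretches before the first annotated exon base of Cxcl1, Cxcl2 and Cxcl3 was GGGAATTTCCC, of 11 bases, which is of the type bound by NF-kappaB. The 3 genes share it because it was found by comparing them, so that is no finding. On either strand (GGGAAATTCCC on the other) it was in 14 of 32851 promoter windows in all (0.0426%), and these letters were not in the windows of Cxcr2 and Cxcr4. These stretches of the 3 chemokine genes are shown because their levels are compared throughout. They are the plus strand at chr5:90890995-90891240 for Cxcl1, chr5:90903649-90903870 for Cxcl2 and chr5:90785851-90786100 for Cxcl3, with the shared run in capitals, and its first base lies 71, 97 and 73 bases before the RefSeq start.
Cxcl1: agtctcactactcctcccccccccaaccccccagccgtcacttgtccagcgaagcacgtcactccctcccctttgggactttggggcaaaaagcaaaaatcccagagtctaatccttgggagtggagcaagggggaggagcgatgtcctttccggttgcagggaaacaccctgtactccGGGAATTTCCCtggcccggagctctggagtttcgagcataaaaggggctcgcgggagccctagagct
Cxcl2: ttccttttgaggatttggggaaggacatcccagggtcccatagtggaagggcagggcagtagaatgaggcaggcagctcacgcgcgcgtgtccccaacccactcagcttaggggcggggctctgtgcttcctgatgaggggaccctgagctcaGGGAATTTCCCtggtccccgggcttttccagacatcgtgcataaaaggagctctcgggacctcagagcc
Cxcl3: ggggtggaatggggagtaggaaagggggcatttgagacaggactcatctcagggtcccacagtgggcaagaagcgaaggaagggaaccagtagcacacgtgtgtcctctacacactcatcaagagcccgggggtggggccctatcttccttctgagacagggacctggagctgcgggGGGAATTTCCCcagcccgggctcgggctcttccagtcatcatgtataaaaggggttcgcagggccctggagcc
A match of letters is a description and not a bound site.

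The WT library held 3467 barcodes and the Clec7a-/- library 3080. UMIs (unique molecular identifiers) mark single captured RNA molecules. Barcodes were kept when they had from 200 to 4000 genes detected and no more than 5% of UMIs from mitochondrial genes. This left 2696 WT cells (median 3412.5 UMIs) and 1999 Clec7a-/- cells (median 2671 UMIs). There was 1 library for each genotype, so no test was made between them, and cells of 1 library are not replicates. Levels are in CPM, the UMIs of a gene per 1000000 UMIs of the same cells. Intervals are exact 95% intervals that cover counting error only, not the difference between mice or library preparations. Those of levels and ratios take each UMI as an independent draw and so leave out the spread between cells too. A difference beyond counting error can therefore rest on few cells. Genes with at least 20 UMIs over both libraries in the cells compared are called tested, which means only that their ratio was set against 2-fold. In a class, fewer cells with a transcript and less transcript per cell both lower the level. A UMI of Itgam or Itgax, which encode CD11b and CD11c, was found in 83.4% of WT and 69.1% of Clec7a-/- cells. The libraries shared 17 barcodes.

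Clustering without these genes and without a list of 49 genes of the same pathway gave 15 clusters, which were named from marker lists. The neutrophil-like class (Ngp, Retnlg, S100a8, S100a9) held 520 WT and 112 Clec7a-/- cells, or 19.3% and 5.60% of the cells kept. A further pair of clusters carried 8 of 10 neutrophil markers at 2-fold or more above other cells but was left unnamed. The Prok2 cluster, led by Prok2, Col15a1, Gm26917 and Ffar2, held 162 WT and 290 Clec7a-/- cells, whose medians of 1081 and 888.5 UMIs were low for their libraries. It carried only 2 of 7 neutrophil granule markers and also 2 of 5 eosinophil markers. No marker of the neutrophil, neutrophil granule or eosinophil lists was among its leading genes. The mixed cluster was led by Chil3, Slpi, Saa3 and Asprv1, with S100a8 and S100a9 also among its leading genes, and held 326 and 84 cells. It carried 4 of 7 neutrophil granule markers but only 2 of 7 monocyte markers, and Chil3 was the only monocyte marker among its leading genes. The remaining classes compared were monocyte-like (412 WT and 276 Clec7a-/- cells), transitional-like between monocyte and macrophage (260 and 197), macrophage-like (532 and 300, from 2 clusters), type 1 dendritic cell (DC)-like (86 and 168), type 2 DC-like (143 and 165), mature DC-like (134 and 230) and T-cell-like (66 and 121). The type 2 DC-like class carried 4 of 6 type 2 DC markers but also 3 of 8 mature DC markers, and S100a4, Il22ra2 and Klrd1 led it. T-cell-like cells, which lay outside the sorted lineage, served as the class that should lack the chemokines and Cxcr2.

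**Figure D1:**
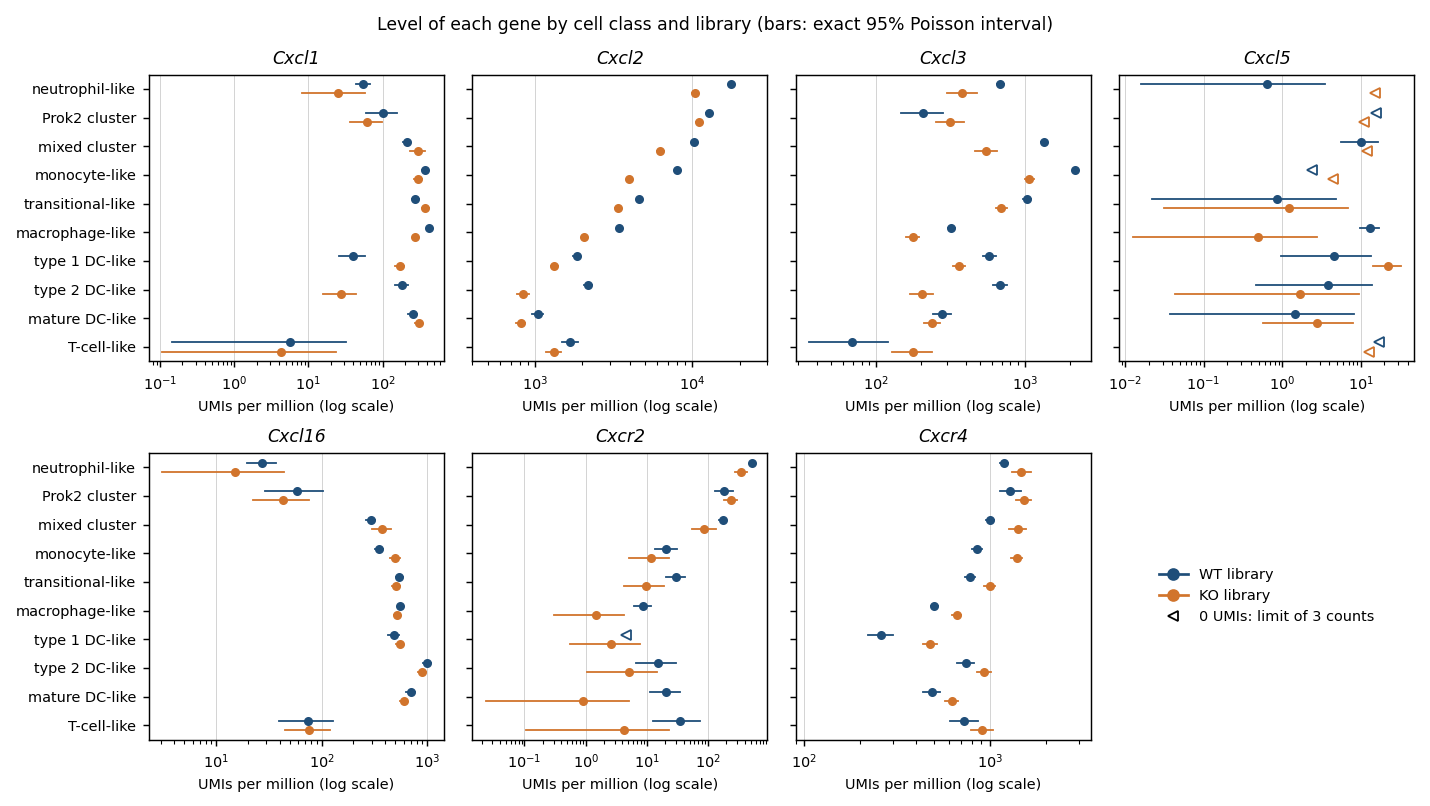
Level of each gene (CPM, log axis) in 10 cell classes of the WT (blue) and Clec7a-/- (orange, KO) libraries, with bars for the exact 95% Poisson interval and open triangles for the limit of 3 counts where no UMI was found. Cxcr2 was highest in neutrophil-like cells, Cxcl2 in neutrophil-like cells (WT) or the Prok2 cluster (Clec7a-/-), Cxcl3 in monocyte-like cells and Cxcl16 in type 2 DC-like cells.

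Cxcl2, the main CXCR2 ligand of myeloid cells in mice, was highest in the cells with neutrophil markers. The neutrophil-like class stood at 17559 CPM in WT and 10338 in Clec7a-/- cells. The Prok2 cluster (12697 and 11006) and the mixed cluster (10303 and 6262) followed. In the WT library each of these levels was above the next, whereas in the Clec7a-/- library the neutrophil-like class was lower than the Prok2 cluster by 0.09 on the log2 scale (log2 ratio -0.09, interval -0.17 to -0.01). Below them came monocyte-like cells (8026 and 3971), transitional-like cells (4591 and 3350) and macrophage-like cells (3414 and 2051).

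Dendritic classes and T-cell-like cells were at the low end. The WT and Clec7a-/- levels of Cxcl2 were 1838 and 1326 in type 1 DC-like cells, 2170 and 846 in type 2 DC-like cells, and 1039 and 814 in mature DC-like cells. T-cell-like cells had 1662 and 1314, so mature DC-like cells in both libraries and type 2 DC-like cells in the Clec7a-/- library lay below a class taken to lack the gene, and Clec7a-/- type 1 DC-like cells lay beside it. The Clec7a-/- T-cell-like level rested on few cells, since 1 cell held 126 of its 312 UMIs. In a comparison added after the data were seen, the 2 highest cells of each library were left out of each class. Clec7a-/- T-cell-like cells then stood at 662, under type 2 DC-like (713), mature DC-like (714) and type 1 DC-like cells (1247). In the WT library mature DC-like cells (906) stayed below T-cell-like cells (1194). The WT type 2 DC-like level was above the T-cell-like one by 0.39 on the log2 scale (0.20 to 0.58). To compare cells at 1 depth, each cell was thinned at random to 1000 UMIs, which left out 186 WT and 307 Clec7a-/- cells that had fewer. Of these, 76 and 180 were of the Prok2 cluster, so whole-library values from thinned cells are of another class mix. At that depth, a Cxcl2 UMI was found in 33.9% (21.8 to 47.8) of WT T-cell-like cells and 29.7% (20.6 to 40.2) of Clec7a-/- T-cell-like cells, whose median depths before thinning were 2284.5 and 1823 UMIs. The same share was 100% and 99.1% in neutrophil-like cells (medians of 2770 and 1754.5 UMIs), 90.1% and 73.6% in monocyte-like cells and 75.9% and 63.2% in macrophage-like cells, all above the T-cell-like share. Neutrophil-like cells had a median of 46.5 Cxcl2 UMIs each in the WT and 16 in the Clec7a-/- library before thinning.

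Transcripts of neutrophils were found in every other class, and in each but the Prok2 cluster at a higher level in the WT library. S100a8 and S100a9 together stood at 31967 and 27442 CPM in neutrophil-like cells, and all 10 neutrophil markers were detected in each of the 10 classes of both libraries. In macrophage-like cells they stood at 628 in the WT and 208 in the Clec7a-/- library, and 69.2% and 31.0% of these cells had a UMI of either gene. In T-cell-like cells the 2 genes stood at 3541 and 998. Set against these UMIs of the same cells, Cxcl2 came to 549 UMIs per 1000 S100a8 and S100a9 UMIs in WT neutrophil-like cells and 469 in WT T-cell-like cells, and to 377 and 1316 in the Clec7a-/- library. The same ratio was 7721 and 7790 in monocyte-like cells and 5080 and 5425 in transitional-like cells. It was 5433 and 9867 in macrophage-like cells and 11333 and 19269 in type 1 DC-like cells. The ratio was 1780 and 749 in the Prok2 cluster and 844 and 775 in the mixed cluster, which also carried neutrophil markers. Monocyte-like, transitional-like, macrophage-like and type 1 DC-like cells lay above these and above neutrophil-like cells. Clec7a-/- T-cell-like cells lay nearer to the ratio of all cells (1026 WT and 1448 Clec7a-/-). Type 2 DC-like cells had 1757 and 2279, and mature DC-like cells 1580 and 5098. The WT values of these 2 classes lay between those of the mixed and Prok2 clusters. The source of the Cxcl2 counts of each class was not tested.

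**Figure D2:**
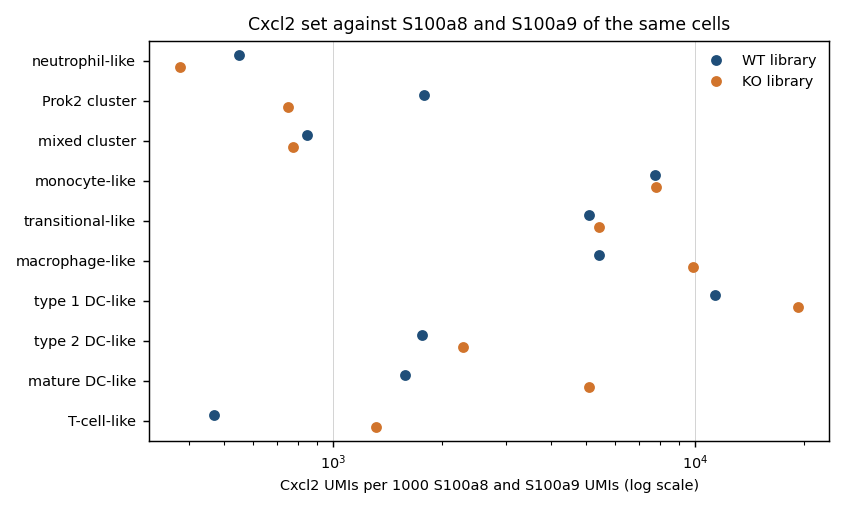
Cxcl2 UMIs per 1000 UMIs of S100a8 and S100a9 in the same cells (log axis), by class, in the WT (blue) and Clec7a-/- (orange, KO) libraries. Monocyte-like, transitional-like, macrophage-like and type 1 DC-like cells lie between 5080 and 19269, whereas neutrophil-like cells lie at 549 and 377. The Prok2 cluster lies at 1780 and 749 and the mixed cluster at 844 and 775. T-cell-like cells lie at 469 and 1316.

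By count of molecules, Cxcl2 in the WT library came chiefly from cells with neutrophil markers. Neutrophil-like cells held 34.7% of all WT Cxcl2 UMIs, the mixed cluster 19.6%, macrophage-like cells 18.5% and monocyte-like cells 12.6%. In the Clec7a-/- library macrophage-like cells held 21.1%, the Prok2 cluster 15.4%, transitional-like cells 13.8%, monocyte-like cells 13.7% and neutrophil-like cells 10.4%. The 5% of cells with the most Cxcl2 held 20.9% of its WT UMIs and 28.6% of its Clec7a-/- UMIs.

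**Figure D3:**
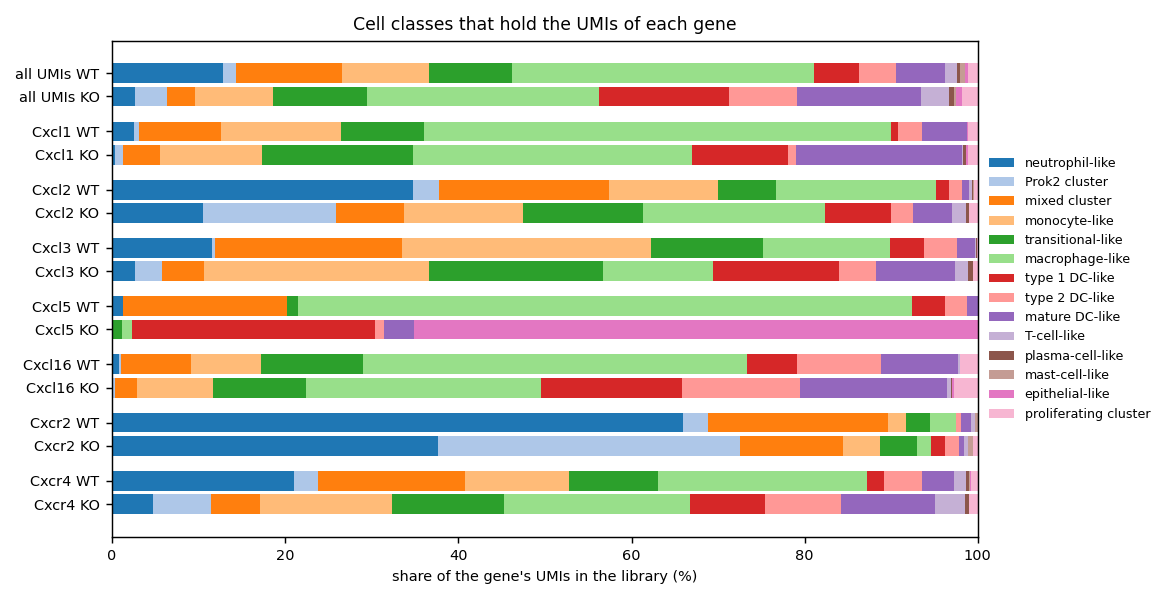
Share of each gene's UMIs (percent of the gene's UMIs in that library) held by each cell class, in pairs of bars for the WT and Clec7a-/- (KO) libraries, with the share of all UMIs above. Neutrophil-like cells held 34.7% of WT and 10.4% of Clec7a-/- Cxcl2 UMIs, and 66.0% and 37.6% of Cxcr2 UMIs.

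By class, few of the members were past 2-fold, and they are set here beside the share of all genes tested that were at least 2-fold higher and at least 2-fold lower in the Clec7a-/- library. These counts use ratios with 0.5 UMI added to each library. In neutrophil-like cells no member of 6 tested was past 2-fold (7.44% and 7.46% of all genes), but Cxcl1 lay at the limit, at -0.99 with the added 0.5 UMI and -1.11 without it (85 and 5 UMIs), and Cxcl3 (-0.85) passed it under TMM (-1.06) and median-of-ratios scaling (-1.06). None of 6 was past 2-fold in the Prok2 cluster (11.1% and 26.5%) and none of 5 in mature DC-like cells (2.57% and 2.8%). In the Prok2 cluster TMM and median-of-ratios scaling shifted every ratio by 0.58 and 0.55, which took Cxcl3 (0.61) past 2-fold higher. In the mixed cluster Cxcl3 was lower, 1 of 6 (5.13% and 6.46%), and in monocyte-like cells Cxcl2 and Cxcl3, 2 of 6 (2.24% and 3.03%). Cxcr2 lay near the limit in the mixed cluster (-0.96). There TMM and median-of-ratios scaling shifted every ratio by -0.13 and -0.12, which took Cxcr2 past 2-fold lower. In transitional-like cells Cxcr2 was lower, 1 of 6 (2.88% and 2.09%), and in macrophage-like cells Cxcl5 and Cxcr2, 2 of 7 (1.48% and 2.04%). A single cell held 54 of the 56 WT Cxcl5 UMIs of macrophage-like cells, and without it Cxcl5 would have had too few UMIs to be tested. In type 1 DC-like cells Cxcl1 and Cxcl5 were higher, 2 of 6 (5.32% and 2.24%), and in type 2 DC-like cells Cxcl1, Cxcl2 and Cxcl3 were lower, 3 of 5 (2.98% and 3.18%). The type 1 DC-like Cxcl5 value rested on few cells too, since 1 cell held 12 of its 25 Clec7a-/- UMIs. In T-cell-like cells Cxcl3 was higher, 1 of 4 (3.58% and 3.48%), with 1 cell holding 19 of its 42 Clec7a-/- UMIs and 1 cell holding 6 of its 12 WT UMIs. Without the highest cell of each library this ratio was 1.497 (0.16 to 3.08, from 6 and 23 UMIs).

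Between the libraries Cxcl2 was lower in the Clec7a-/- cells as a whole, at 2613 against 6447 CPM, a log2 ratio of -1.30 (interval -1.33 to -1.28). The median ratio of all genes tested was 0.15, and TMM and median-of-ratios scaling shifted every whole-library ratio by -0.17. Cxcl2 was lower beyond counting error in 10 of 10 classes. These include T-cell-like cells, the class that served as background, at -0.34 (-0.57 to -0.10), and mature DC-like cells lay beside it at -0.35. The T-cell-like ratio rested in part on 1 Clec7a-/- cell with 126 of 312 UMIs. Without the 2 highest cells of each library the T-cell-like ratio was -0.85 (-1.16 to -0.54). It then lay beside those of neutrophil-like (-0.79) and macrophage-like cells (-0.81), and below that of mature DC-like cells (-0.34). With all cells kept, the log2 ratio was -1.36 in type 2 DC-like cells, -1.02 in monocyte-like cells, -0.76 in neutrophil-like cells, -0.74 in macrophage-like cells and -0.72 in the mixed cluster, and it was nearest to 0 in the Prok2 cluster (-0.21). In the Prok2 cluster the median of all genes was itself -0.37, and scaling by TMM or by the median of ratios turned the log2 ratio to 0.37 and 0.34. The ratios past 2-fold were those of type 2 DC-like and monocyte-like cells, where 3.18% and 3.03% of all genes tested were at least 2-fold lower. In type 2 DC-like cells 1 WT cell held 25.4% of the 1140 WT Cxcl2 UMIs.

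S100a8 and S100a9 together were also lower in the Clec7a-/- library in 9 of the 10 classes, the Prok2 cluster excepted, but not in step with Cxcl2. They stood at 31967 WT and 27442 Clec7a-/- CPM in neutrophil-like cells and at 658 and 160 in mature DC-like cells. The Cxcl2 log2 ratios of these classes were -0.76 and -0.35. A link between the 2 was not tested. Among cells with no UMI of S100a8 or S100a9, a comparison added after the data were seen, the log2 ratio of Cxcl2 was -1.09 in monocyte-like, -0.69 in macrophage-like, -0.44 in transitional-like, -0.27 in type 1 DC-like and -0.62 in type 2 DC-like cells. In mature DC-like cells it was 0.02 (-0.22 to 0.26) and in T-cell-like cells 0.74 (-0.25 to 1.84), both with intervals that include 0. In this comparison T-cell-like cells stood at 170 WT and 283 Clec7a-/- CPM, from 29 and 79 cells. Mature DC-like cells (834 and 844) and type 2 DC-like cells (698 and 454) then lay above them. Few WT cells were left in some classes, such as 41 type 1 DC-like and 164 macrophage-like cells. A cell with few UMIs is more likely to have none of these 2 genes, so the filter favors shallow cells. It also kept unlike shares of the libraries, such as 164 of 532 WT and 207 of 300 Clec7a-/- macrophage-like cells. Wherever this comparison is given, whether the cells kept are free of neutrophil RNA was not tested. With all cells of a cluster, the 2 macrophage clusters gave log2 ratios of -0.85 and -0.62.

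Cxcl3, a close paralog of Cxcl2 in sequence and receptor, had another order of classes. Its level was highest in monocyte-like cells, at 2175 WT and 1074 Clec7a-/- CPM, beyond the mixed cluster (1341 and 547) and transitional-like cells (1032 and 696) in both libraries. Neutrophil-like cells had 686 and 381, and type 1 DC-like cells (578 and 361) did not differ from them beyond counting error in the Clec7a-/- library. Type 2 DC-like cells had 680 and 203, macrophage-like cells 320 and 176, and T-cell-like cells 68.8 and 177. Monocyte-like cells held 28.8% and 26.0% of the Cxcl3 UMIs of the libraries, and neutrophil-like cells 11.5% and 2.70%. Among cells thinned to 1000 UMIs, 56.9% (51.8 to 61.9) of WT and 30% (24.4 to 36.1) of Clec7a-/- monocyte-like cells had a Cxcl3 UMI, against 8.93% and 9.89% of T-cell-like cells.

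In all cells Cxcl3 stood at 762 in the WT and 373 in the Clec7a-/- library (log2 ratio -1.03, interval -1.09 to -0.97). It was lower beyond counting error in 7 of 10 classes, among them monocyte-like (-1.02), macrophage-like (-0.86), neutrophil-like (-0.85), transitional-like (-0.57) and type 2 DC-like cells (-1.74), and the mixed cluster (-1.29). In mature DC-like cells the interval included 0 (-0.22, -0.50 to 0.05). It was higher in the Prok2 cluster (0.61, from 39 and 87 UMIs) and in T-cell-like cells (1.36, from 12 and 42 UMIs), the class that served as background. The Prok2 cluster value turned to -0.80 with 500 to 6000 detected genes a cell, -0.15 with no filter on cells and -0.30 with 10 principal components. TMM and median-of-ratios scaling moved it the other way, upward by 0.58 and 0.55. Among cells with no UMI of S100a8 or S100a9 the ratio was -1.14 in monocyte-like and -1.01 in macrophage-like cells, it was -0.996 (-1.33 to -0.66) in mature DC-like cells, and the intervals included 0 in transitional-like (-0.10, -0.32 to 0.12) and type 1 DC-like cells (0.09).

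Cxcl1 was spread over macrophages, monocytes and mature dendritic cells and was low in neutrophils. Its level in the WT library was 425 CPM in macrophage-like, 380 in monocyte-like, 278 in transitional-like and 254 in mature DC-like cells, against 54.2 in neutrophil-like cells. In the Clec7a-/- library transitional-like cells were highest (377), followed by mature DC-like cells (309), monocyte-like cells (302), the mixed cluster (300) and macrophage-like cells (278), and the last did not differ from monocyte-like cells beyond counting error. The transitional-like level rested on few cells, since 2 Clec7a-/- cells held 72 and 64 of its 307 UMIs. When the 2 highest cells of each library were left out of each class, a comparison added after the data were seen, Clec7a-/- transitional-like cells stood at 215 CPM, under mature DC-like cells (277) and macrophage-like cells (238). T-cell-like cells had 1 UMI in each library. The gene was concentrated in few cells, since the 5% of cells with the most UMIs held 85.1% of WT and 81.3% of Clec7a-/- UMIs, and the highest cells held 119 and 72. After thinning it was found in 14.99% (11.996 to 18.4) of WT and 12.5% (8.86 to 17.0) of Clec7a-/- macrophage-like cells, against 1.79% and 1.10% of T-cell-like cells.

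Between libraries Cxcl1 moved in both directions. In all cells it was 275 WT and 232 Clec7a-/- CPM, a log2 ratio of -0.25 (-0.33 to -0.16). It was lower beyond counting error in macrophage-like (-0.61), monocyte-like (-0.33) and type 2 DC-like cells (-2.74), and higher in transitional-like cells (0.44), type 1 DC-like cells (2.09), mature DC-like cells (0.28) and the mixed cluster (0.50). In neutrophil-like cells and the Prok2 cluster the interval included 0. Without the 2 highest cells of each library the interval also included 0 in transitional-like cells (0.015, -0.28 to 0.30) and the mixed cluster (-0.28, -0.83 to 0.24), where 1 Clec7a-/- cell held 29 of 75 UMIs. With cells left out in the same way, the values were 3.14 in type 1 DC-like, -2.22 in type 2 DC-like and 0.45 in mature DC-like cells. Leaving out 2 cells took unlike shares of the UMIs of the libraries. Type 1 DC-like cells kept 10 of 26 WT and 154 of 194 Clec7a-/- UMIs. These 3 values therefore do not show whether the ratios rest on few cells. The higher level in type 1 DC-like cells rested on 26 UMIs in 7 of 86 WT cells and 194 UMIs in 34 of 168 Clec7a-/- cells, and 5.32% of the genes tested there were at least 2-fold higher. The lower level in type 2 DC-like cells rested on 95 UMIs in 13 of 143 WT cells, of which 2 cells had 28 and 27, and on 16 UMIs in 9 of 165 Clec7a-/- cells. The thinned shares of cells with a UMI had overlapping intervals in both classes, at 4.65% (1.28 to 11.5) and 8.02% (4.34 to 13.3) in type 1 DC-like cells and 1.64% (0.20 to 5.80) and 1.96% (0.41 to 5.62) in type 2 DC-like cells. Among cells with no S100a8 or S100a9 UMI, the monocyte-like value was 0.08 (-0.28 to 0.44), the macrophage-like value -1.22, the transitional-like value 0.73, the type 1 DC-like value 2.79, the type 2 DC-like value -4.17 and the mature DC-like value 0.12 (-0.26 to 0.51). The transitional-like value turned to -0.22 at a lower clustering resolution and -0.03 after integration by reciprocal PCA.

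Cxcl5, an epithelial chemokine in many tissues, was nearly absent from the sorted cells. It had 79 UMIs in 15 of 2696 WT cells and 89 UMIs in 17 of 1999 Clec7a-/- cells. A single WT cell of the macrophage-like class held 54 of the 79, and a WT cell of the mixed cluster held 12. In the Clec7a-/- library 58 of the 89 UMIs lay in the 12 epithelial-like cells, 48 of them in 1 cell, and 25 lay in 7 type 1 DC-like cells with 12 in 1 of them. The 15 WT epithelial-like cells had none, which allows a level of up to 90.1 CPM (3 counts). The whole-library log2 ratio of 0.87 (0.42 to 1.33) rested on these few cells, and it turned to -0.57 when each cell was thinned to 1000 UMIs. Monocyte-like cells had no Cxcl5 UMI in either library, which allows up to 2.42 and 4.39 CPM.

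Cxcl16, the membrane-anchored chemokine, was a gene of antigen-presenting cells and macrophages. Its level was highest in type 2 DC-like cells, at 990 WT and 892 Clec7a-/- CPM, beyond mature DC-like cells (697 and 601) in both libraries. Macrophage-like cells (558 and 517) and transitional-like cells (545 and 508) did not differ beyond counting error in either library, and type 1 DC-like cells (482 and 551) followed. Monocyte-like cells had 350 and 497. The level was low in neutrophil-like cells (27.4 and 15.03) and in the Prok2 cluster (58.2 and 43.5), at or below that of T-cell-like cells (74.5 and 75.8), although in the mixed cluster it was 292 and 375. After thinning, Cxcl16 was found in 62.3% (53.1 to 70.9) of WT and 58.8% (50.6 to 66.7) of Clec7a-/- type 2 DC-like cells. Macrophage-like cells, being numerous and deep, held 44.4% of WT and 27.2% of Clec7a-/- Cxcl16 UMIs.

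Cxcl16 differed little between libraries. In all cells it was 439 and 510 CPM (log2 ratio 0.22, 0.16 to 0.28), and this became 0.05 under TMM scaling and 0.04 under median-of-ratios scaling. Of 10 classes, 6 had an interval that included 0. It was higher in Clec7a-/- monocyte-like cells (0.51, 0.30 to 0.71) and in the mixed cluster (0.36, 0.03 to 0.69), and lower in mature DC-like cells (-0.21, -0.39 to -0.04) and macrophage-like cells (-0.11, -0.22 to -0.01). Among monocyte-like cells without S100a8 or S100a9 UMIs the ratio was 0.17 (-0.13 to 0.48). Adam10 and Adam17, which shed CXCL16, stood in macrophage-like cells at 79.5 and 260 CPM in the WT library and 76.3 and 269 in the Clec7a-/- library. Cxcr6, its receptor, was a gene of the T-cell-like class, at 785 and 864 CPM (log2 ratio 0.14, -0.18 to 0.46).

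Cxcr2, the receptor of CXCL1, CXCL2, CXCL3 and CXCL5, marked the neutrophil-like class and the 2 clusters that carried neutrophil markers. Its level was 530 WT and 351 Clec7a-/- CPM in neutrophil-like cells, 185 and 236 in the Prok2 cluster, and 174 and 87.9 in the mixed cluster. In the WT library the Prok2 and mixed clusters did not differ beyond counting error (log2 ratio 0.09, -0.47 to 0.60). All other compared classes lay between 0 and 34.4, and WT T-cell-like cells had the 34.4, from 6 UMIs. In thinned cells a Cxcr2 UMI was found in 35.1% (31.0 to 39.4) of WT and 27.4% (19.2 to 36.9) of Clec7a-/- neutrophil-like cells, against 3.57% (0.44 to 12.3) and 1.10% (0.03 to 5.97) of T-cell-like cells. Most Cxcr2 UMIs were in these 3 groups of cells. Neutrophil-like cells held 66.0%, the mixed cluster 20.9% and the Prok2 cluster 2.78% of the WT UMIs, and of the Clec7a-/- UMIs 37.6%, 11.8% and 34.9%.

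In all cells Cxcr2 was 102 CPM in the WT and 24.6 in the Clec7a-/- library, from 1259 and 186 UMIs, a log2 ratio of -2.06 (-2.29 to -1.84), which was -1.06 when each cell counted equally. With Cxcl2 and Cxcl3 it made 3 of the 7 genes at least 2-fold lower in Clec7a-/- cells as a whole, where 2.41% of 11461 genes were at least 2-fold lower, and none of the 7 was at least 2-fold higher, where 5.47% were. The rank of Cxcr2 was low, with 0.454% of the genes below it, against 1.27% for Cxcl2 and 2.22% for Cxcl3. Within neutrophil-like cells the difference was smaller, at -0.60 (-0.97 to -0.24), with 16.3% of 4181 genes below it. In the mixed cluster it was -0.99 (-1.69 to -0.36), and in the Prok2 cluster the interval included 0 (0.35, -0.27 to 0.98). TMM and median-of-ratios scaling shifted the Prok2 cluster value and interval upward by 0.58 and 0.55, so that the interval lay above 0. Outside these clusters the ratio was past 2-fold in transitional-like cells (-1.61, from 35 and 8 UMIs), where 2.09% of all genes were at least 2-fold lower, and in macrophage-like cells (-2.55, from 37 and 3 UMIs), where 2.04% were, and S100a8 and S100a9 were also lower there. Among cells with no S100a8 or S100a9 UMI, Cxcr2 had 7 WT and 1 Clec7a-/- UMIs in transitional-like cells (-3.18, -8.68 to -0.22) and 3 and 1 in macrophage-like cells (-2.29, -8.00 to 1.35), so in the latter the interval included 0. The unthinned shares of neutrophil-like cells with a UMI were 66.9% and 42.9%, but these cells were also shallower in the Clec7a-/- library, with medians of 2766.5 and 1702.5 UMIs.

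Cells with a Cxcr2 UMI almost always had Cxcl2 as well. Of 614 WT cells with Cxcr2, 613 had a Cxcl2 UMI, with a median of 45 Cxcl2 UMIs, and of 138 Clec7a-/- cells with Cxcr2, 135 had one, with a median of 13. In thinned cells, all 182 WT and 28 of 29 Clec7a-/- neutrophil-like cells with Cxcr2 had Cxcl2. The ligand transcript and the receptor transcript were thus found in the same cells in both genotypes, although nearly every neutrophil-like cell had Cxcl2, with or without Cxcr2.

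Cxcr4 was the broadest of the 7 genes. Its level was highest in the Prok2 cluster (1290 WT and 1518 Clec7a-/- CPM) and neutrophil-like cells (1193 and 1478), which did not differ beyond counting error in either library. The mixed cluster (1001 and 1418) and monocyte-like cells (856 and 1393) followed, then transitional-like cells (781 and 998), type 2 DC-like cells (741 and 931) and T-cell-like cells (728 and 906). Macrophage-like (502 and 663), mature DC-like (485 and 622) and type 1 DC-like cells (258 and 478) were lowest. T cells use CXCR4, so T-cell-like cells are no background for this gene.

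Cxcr4 was higher in the Clec7a-/- library beyond counting error in 9 of 10 classes, with log2 ratios from 0.23 in the Prok2 cluster to 0.89 in type 1 DC-like cells, and in T-cell-like cells the interval included 0 (0.32, -0.01 to 0.64). Monocyte-like cells gave 0.70 (0.57 to 0.83), the mixed cluster 0.50, macrophage-like cells 0.40, mature DC-like cells 0.36, transitional-like cells 0.35 and neutrophil-like cells 0.31 (0.13 to 0.49). TMM and median-of-ratios scaling each shifted the neutrophil-like value and interval by -0.21, so that the interval included 0. No class passed 2-fold. The share of genes tested with a higher ratio was lowest in monocyte-like (6.74% of 6205) and type 1 DC-like cells (6.90%). It was 12.8% in macrophage-like cells, 18.7% in the mixed cluster, 19.0% in mature DC-like cells and 21.5% in transitional-like cells. In type 2 DC-like cells it was 22.2%, in T-cell-like cells 27.2%, in the Prok2 cluster 29.1% and in neutrophil-like cells 33.2%. In all cells the log2 ratio was 0.20 (0.15 to 0.24), near the median of 0.15 over all genes tested, and it became 0.03 under TMM scaling and 0.02 under median-of-ratios scaling. At 1000 UMIs a cell, 50.4% (45.3 to 55.5) of WT and 64.8% (58.5 to 70.7) of Clec7a-/- monocyte-like cells had a Cxcr4 UMI, and in neutrophil-like cells the shares were 67.8% (63.6 to 71.8) and 73.6% (64.1 to 81.7). Among monocyte-like cells without S100a8 or S100a9 UMIs the log2 ratio was 0.82 (0.63 to 1.02). Cxcl12, the ligand of CXCR4, had 1 UMI in the WT library and none in the other.

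**Figure D4:**
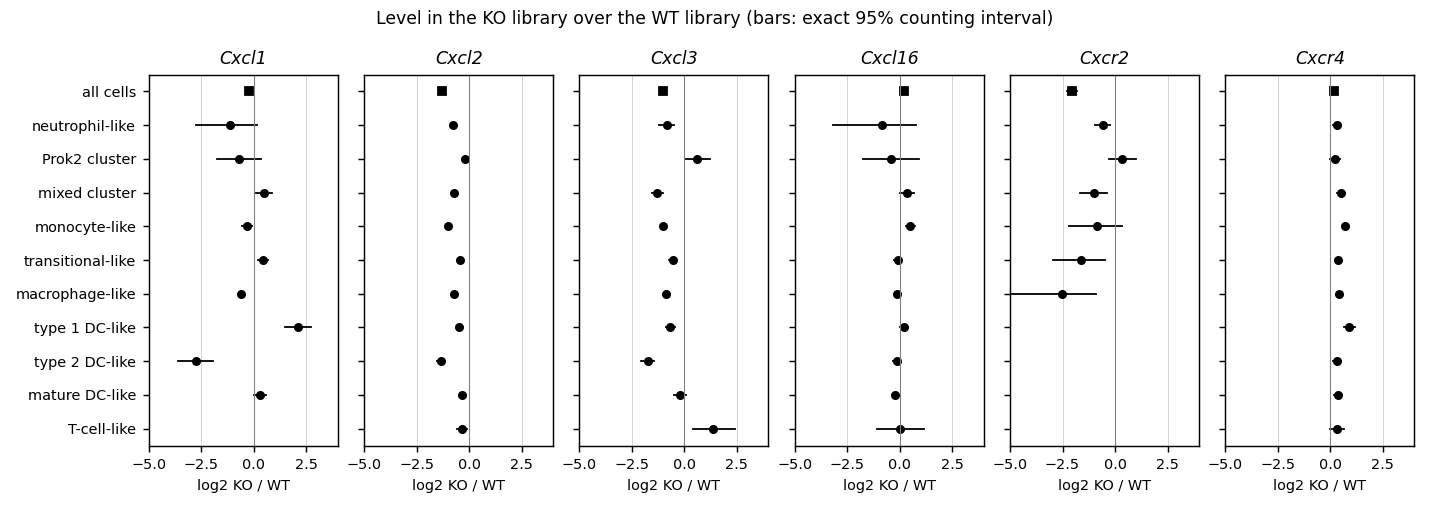
Log2 ratio of the Clec7a-/- (KO) level over the WT level for 6 genes, in all cells (squares) and in 10 classes (points), with bars for the exact 95% counting interval; points under 20 UMIs in both libraries together are left out. Cxcl2 lies below 0 in 10 of 10 classes, T-cell-like cells included, which were taken to lack it. Cxcr4 lies above 0 in 10 of 10, whereas Cxcl1 runs from -2.74 to 2.09.

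Cxcr2 and Cxcr4 did not exclude each other in neutrophil-like cells. At 1000 UMIs a cell, 24.7% (21.1 to 28.7) of WT neutrophil-like cells had both, where the product of the 2 shares was 23.8%, and 17.9% (11.2 to 26.6) of Clec7a-/- cells had both, where the product was 20.1%. Cxcl2 and Cxcl3 were found together in monocyte-like cells. There 95.4% (91.8 to 97.8) of WT cells with Cxcl3 had Cxcl2, against 83.1% (76.6 to 88.5) of those without it, and in the Clec7a-/- library the shares were 89.3% (80.1 to 95.3) and 66.9% (59.4 to 73.8). In macrophage-like cells these shares were 92.3% and 71.7% in the WT library and 80.6% and 60.7% in the other.

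The classes differed in size between the libraries, so the whole-library differences were recomputed with the class sizes of one library and the class levels of the other. With WT levels and the Clec7a-/- shares of UMIs per class, Cxcl2 would have been 4115 CPM (log2 ratio to the WT level -0.65), and with WT shares and Clec7a-/- levels 3885 (-0.73), against the measured -1.30. For Cxcr2 the same values were -1.38 and -0.71 against -2.06, and the class size term was the larger. For Cxcl3 they were -0.23 and -0.92 against -1.03, and the level term was the larger. For Cxcr4 the terms had opposite signs, -0.24 for class sizes and 0.43 for levels, and for Cxcl16 they were 0.24 and 0.00. This arithmetic separates sizes from levels and does not say where either comes from, and it takes the unnamed clusters as classes.

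**Figure D5:**
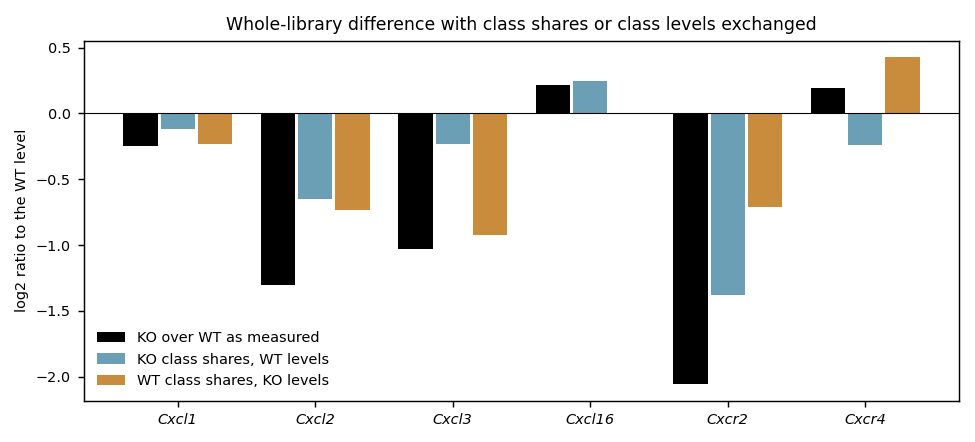
Log2 ratio to the WT level in all cells as measured (black), with Clec7a-/- class shares and WT levels (blue), and with WT class shares and Clec7a-/- levels (orange), for 6 genes. The class share term is -1.38 and the level term -0.71 for Cxcr2, and they are -0.23 and -0.92 for Cxcl3.

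Of the list of 49 other genes of the pathway, 41 were tested in all cells, 8 were at least 2-fold lower and 2 at least 2-fold higher in the Clec7a-/- library, where 2.41% and 5.47% of all genes tested were, with a median log2 ratio of -0.19 against 0.15 over all genes tested. Those lower were Cxcr1, Ackr3, Fpr1, Fpr2, Ccl3, Csf3, Il1a and Tnf. Fpr1, a receptor for bacterial formyl peptides on neutrophils, was 224 in the WT and 56.1 CPM in the Clec7a-/- library, and Csf3, the neutrophil growth factor G-CSF, had 292 and 39 UMIs. Within classes Fpr1 was not among the genes past 2-fold in neutrophil-like cells, and it was at least 2-fold higher in the Prok2 cluster. Those higher were Cxcr6 (log2 ratio 1.05) and Dpp4 (1.26), a peptidase that trims chemokines. Cxcl11 was not analysed here.

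Within neutrophil-like cells 27 of the 49 genes were tested, and 3 were at least 2-fold lower and none higher, where 7.46% and 7.44% of all genes tested were. These were Csf3 (-1.97), Il1a (-1.02), an inducer of CXCR2 ligands, and Nfkbiz (-1.14), which encodes the nuclear regulator IkappaB-zeta. In monocyte-like cells 29 were tested, and Cxcl9, Ccl3 and Csf3 were at least 2-fold lower and none higher, where 3.03% and 2.24% of all genes tested were. In transitional-like cells 29 were tested, and Cxcl10, Pf4 and Ppbp were at least 2-fold higher and none lower, where 2.88% and 2.09% of all genes tested were. There Ppbp, another CXCR2 ligand, was 40.3 and 137 CPM. In type 1 DC-like cells 6 of 27 tested were higher (Cxcl9, Cxcl10, Pf4, Ppbp, Ccl4 and Grk6) and Il1a lower, where 5.32% and 2.24% of all genes tested were, and Ppbp had 1 WT and 55 Clec7a-/- UMIs. In type 2 DC-like cells 6 of 28 tested were lower (Cxcl9, Fpr1, Fpr2, C5ar1, Il1a and Tnf) and none higher, where 3.18% and 2.98% were. Ppbp and Ccl4 went the other way in mature DC-like cells. There 6 of 29 tested were lower (Ppbp, Fpr1, Fpr2, Ccl3, Ccl4 and Il1a) and Cxcl10 and Arrb1 higher, where 2.8% and 2.57% were. In the mixed cluster 5 of 30 were lower (Cxcl14, Fpr1, Csf3, Pik3cg and Il1a) and Pf4 higher, where 6.46% and 5.13% were. In the Prok2 cluster 3 of 22 tested were higher (Cd74, Fpr1 and Zfp36) and Tnf lower, where 11.1% and 26.5% were. In macrophage-like cells 2 of 34 tested were lower (Cxcl9 and Fpr1) and Cxcl10 higher, where 2.04% and 1.48% were. In T-cell-like cells 3 of 24 tested were lower (Cxcr3, Ccl3 and Tnf) and none higher, where 3.48% and 3.58% were.

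The genes whose levels followed each member most closely over clusters were named by Pearson's r of log2(CPM + 10) over 23 points, each a cluster of at least 20 cells in 1 library, among 6983 genes with at least 200 UMIs. Points of 1 library share its preparation and depth, and the values are descriptions. Cxcl2 was followed by Nlrp3 (r = 0.95), the inflammasome sensor, then Fgr, Tbc1d23, Rab20 and Kctd12. Cxcl3 was followed by Bcl10 (0.84), Abcc1, Piwil2, Inhba and Lif, and Cxcl1 by Plcg2 (0.82), Zfyve1, Stx3, Etf1 and Ctsz. Cxcl16 was followed by Ifi30 (0.96), a thiol reductase of antigen processing, Cd86, a costimulatory ligand, Tcp11l1, Gsto1 and Arl5c. Cxcr2 was followed by F630028O10Rik (0.98), Chil1, Asprv1, Ankrd22 and Trim30b, and Cxcr4 by Ubb (0.90), Dhx40, Sirt1, Smad3 and Pde2a. Among the members themselves, r was 0.85 between Cxcl2 and Cxcr2, 0.49 between Cxcl2 and Cxcl3, 0.07 between Cxcl1 and Cxcl2, and -0.64 between Cxcl16 and Cxcr2. Cxcl5 had under 200 UMIs and was left out.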

How the data were processed

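CD11b+ and CD11c+ cells from the polyps of 5 WT and 4 Clec7a-/- mice were pooled into 1 library per genotype. The deposited files hold UMI counts per gene and cell barcode, with no normalization by the authors. The extract protocol names the SeekOne MM kit and the sample description 10x Genomics, and the submitters' processing notes name Cell Ranger 2.1.1 and mm10. Groups came from the sample titles. Depth was 15869215 WT and 11808230 Clec7a-/- UMIs.

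Following the study's methods, barcodes with 200 to 4000 genes detected and up to 5% of mitochondrial UMIs entered the analysis. Scrublet (scanpy 1.11.5) called 10 of 4695 cells doublets (0.213%), too few to have worked, so none was removed. Seurat 5.3.0 (R 4.3.3) scaled cells to 10000 UMIs and used 2000 variable features less the chemokine, pathway and sex genes, 20 principal components and the lowest resolution that gave 15 clusters. Clusters were named from marker lists at a 2-fold minimum. Counts were then summed per class and library with Python 3.11.15, numpy 2.4.6, scipy 1.17.1 and pandas 2.3.3. Levels have exact 95% Poisson intervals, shares Clopper-Pearson intervals and ratios conditional binomial intervals, all for counting error only, and no test between genotypes was made. Genes with at least 20 UMIs over both libraries were tested against a 2-fold difference, with 0.5 UMI added, which is what "tested" means throughout, and the share of all genes past it is the background. Cells were thinned to 1000 UMIs without replacement. Whole-library scalings came from edgeR 4.0.16 (TMM) and DESeq2 1.42.0 (size factors) applied to the deposited counts summed by library and class. On simulated counts for 11461 genes in all cells, 87% of changed genes came within 0.5 of the true log2 ratio and 96.1% of intervals held it. These counts were drawn for whole libraries with counting error only, as the intervals assume. They check the calculation, and not the spread between cells or the levels by class.

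The 7 genes, the 49 pathway genes, the marker lists and the rules were chosen with earlier results of these data known. Genes named are the 7, pathway genes past 2-fold, their known partners, and the 5 genes most like each member. Cxcl11 and Clec7a were not analysed here.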

Additional observations from a re-analysis of the deposited data

Results flagged for a closer look

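Some genes had log2 ratios of Clec7a-/- over WT that lay on opposite sides of 0 in different classes, with intervals that excluded 0 on each side. For Cxcl1 the ratio was 2.09 in type 1 DC-like cells and -2.74 in type 2 DC-like cells. For Cxcl3 it was 0.61 in the Prok2 cluster and -1.74 in type 2 DC-like cells. For Cxcl16 it was 0.51 in monocyte-like cells and -0.21 in mature DC-like cells. With 1 library for each genotype, none of these differences between classes was tested.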

How the results depend on the processing

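No paired analysis was possible because each genotype had 1 library, and for the same reason no replicate could be left out. All ratios here are log2 Clec7a-/- over WT, or one class over the next as a mean of both libraries. In whole libraries Cxcl1 was -0.25 and became -0.14 with 500 to 6000 genes, -0.41 under TMM and -0.42 under median-of-ratios scaling. Cxcl2 was -1.30 and became -1.36 with 500 to 6000 genes, -1.37 with at most 10% mitochondrial UMIs, -1.36 with no filter, -1.47 under TMM, -1.48 under median-of-ratios scaling, -0.99 as a mean over cells and -1.28 when thinned. Cxcl3 was -1.03 and became -1.20 under both scalings and -1.12 when thinned. Cxcl5 was 0.87 and became 0.13 with no filter and -0.57 when thinned. In an alternative chosen after seeing the data, without the highest cell or the 2 highest cells of each library, Cxcl5 became 1.42 and 1.86 and, for 2 cells, Cxcl2 -1.33, and Cxcl1 in the mixed cluster turned to -0.051 and -0.28. Cxcl16 was 0.22 and became 0.050 under TMM, 0.042 under median-of-ratios scaling, 0.15 with no filter and 0.38 when thinned. Cxcr2 was -2.06 and became -2.38 with 500 to 6000 genes, -1.06 as a mean over cells and -1.73 when thinned. Cxcr4 was 0.20 and became 0.15 with at most 10% mitochondrial UMIs, 0.14 with no filter, 0.029 under TMM, 0.022 under median-of-ratios scaling and 0.27 as a mean over cells.

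Within the class of highest level, Cxcl1 in macrophage-like cells was -0.61 and became -0.40 with 500 to 6000 genes, -0.48 with at most 10% mitochondrial UMIs, -0.35 with no filter, -0.47 at the lower resolution, -0.79 when thinned and -1.22 in cells with no S100a8 or S100a9 UMI. Cxcl2 in neutrophil-like cells was -0.76 and became -0.94 with 10 components, -0.98 under TMM, -0.97 under median-of-ratios scaling and -0.69 with reciprocal PCA. Cxcl5 in type 1 DC-like cells became 0.086 when thinned. Cxcl16 in type 2 DC-like cells became 0.059 in cells with no S100a8 or S100a9 UMI. Cxcr4 in the Prok2 cluster was 0.23 and became 0.81 under TMM and 0.78 under median-of-ratios scaling.

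Over the next class, Cxcl1 in macrophage-like cells stood at 0.04 and became 1.05 with 500 to 6000 genes, 0.95 with at most 10% mitochondrial UMIs, 0.90 with no filter and 0.18 both as a mean over cells and when thinned. Cxcl2 in neutrophil-like cells stood at 0.23 over the Prok2 cluster and became 0.054 and 0.18 with 10 and 30 components, 0.18 without the 5% highest Scrublet scores, 0.18 with no filter, 0.31 with all variable features, 0.30 as a mean over cells, 0.17 when thinned, 0.44 with reciprocal PCA, 0.35 at the higher resolution, 1.07 under TMM and 0.80 under median-of-ratios scaling. Cxcl3 in monocyte-like cells stood at 0.78 over the mixed cluster and became 0.64 with 10 components, 0.60 without the highest Scrublet scores, 0.63 with 500 to 6000 genes, 0.43 with at most 10% mitochondrial UMIs, 0.40 with no filter, 0.52 under TMM and 0.56 under median-of-ratios scaling. Cxcl5 became 0.17 at the lower resolution. Cxcl16 in type 2 DC-like cells stood at 0.54 over mature DC-like cells and became 0.75 with all variable features, 0.36 with no filter and 0.67 when thinned. Cxcr2 in neutrophil-like cells stood at 1.07 over the Prok2 cluster and became 1.81 under TMM and 1.56 under median-of-ratios scaling. Cxcr4 in the Prok2 cluster stood at 0.07 over neutrophil-like cells and became -0.56 and -0.42 under these scalings.

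Directions turned within other classes as follows. Cxcl1 in the mixed cluster became -0.017 with at most 10% mitochondrial UMIs, -0.34 without the highest Scrublet scores, -1.19 with no filter and -0.33 with 10 components. In mature DC-like cells Cxcl1 became -0.00104 with 30 components, and in transitional-like cells -0.22 at the lower resolution and -0.029 with reciprocal PCA. Cxcl3 in the Prok2 cluster became -0.80 with 500 to 6000 genes, -0.15 with no filter and -0.30 with 10 components. Cxcl2 in mature DC-like cells became 0.016 with all variable features, and in the Prok2 cluster 0.37 under TMM and 0.34 under median-of-ratios scaling. Cxcl16 in mature DC-like cells became 0.044 when thinned. In cells with no S100a8 or S100a9 UMI, an alternative chosen after seeing the data, Cxcl1 in monocyte-like cells became 0.082, Cxcl2 in mature DC-like cells 0.017 and in T-cell-like cells 0.74, and Cxcl3 in type 1 DC-like cells 0.094. The cause was not tested for any of these.

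Shares of cells with a UMI rose with depth by construction. At 2000 UMIs they were 18.8% WT and 17.5% Clec7a-/- for Cxcl1 in macrophage-like cells, 67.7% and 38.8% for Cxcl3 in monocyte-like cells, 78.9% and 75.4% for Cxcl16 in type 2 DC-like cells, 59.8% and 47.1% for Cxcr2 in neutrophil-like cells, 100% for Cxcl2 in Clec7a-/- neutrophil-like cells and 83.3% for Cxcr4 in the WT Prok2 cluster. No Clec7a-/- cell of that cluster had 2000 UMIs, so it has no value. Without thinning they were 27.3% and 24.3%, 65.0% and 38.0%, 81.1% and 83.0%, and 66.9% and 42.9% for the first 4 pairs. With at least 100 UMIs a gene, 205 genes were at least 2-fold higher and 145 lower, against 627 and 276. With log2(level + 1), 2, 2 and 3 of the 5 most similar genes of Cxcl1, Cxcl3 and Cxcr2 were kept.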

Other observations

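In epithelial-like cells, which lay outside the sort, Cxcl2 was found at 1863 CPM in the WT library (62 UMIs in 15 cells, of which 1 cell held 51) and at 79.9 in the Clec7a-/- library (4 UMIs in 12 cells). Across all classes a UMI of Cxcl1, Cxcl2 or Cxcl3 was found in 92.8% of WT and 78.7% of Clec7a-/- cells at their measured depths. Cxcl10, an interferon-induced ligand of CXCR3, was higher in Clec7a-/- macrophage-like cells, at 55.7 against 16.8 CPM (log2 ratio 1.73, 1.29 to 2.18), and Cxcl9, which binds the same receptor, was lower there (-1.10, -1.81 to -0.46). In type 1 DC-like cells Cxcl9 was higher, at 106 against 41.7 CPM (1.34, 0.73 to 2.004). Ppbp was chiefly a gene of macrophage-like cells, with 762 of 853 WT and 264 of 446 Clec7a-/- UMIs there.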
